A study of Mus musculus with 35 samples.

Results

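The FGF ligands and receptors were followed across GATA6-driven differentiation of mouse ES cells into primitive endoderm (PrE) and, in a second set of libraries, after siRNA against Oct4. The set comprised 10 genes listed by name, 5 ligands (Fgf3, Fgf4, Fgf8, Fgf10 and Fgf15) and 5 receptors (Fgfr1, Fgfr2, Fgfr3, Fgfr4 and Fgfrl1). All 10 were found by symbol among the 44853 genes of the induction table, and 7 of them among the 6275 genes of the siRNA table. That table held only genes that the study had classed as responsive to GATA6, a choice that rests on these same induction libraries. Fgf4, Fgf8 and Fgf15 were not in it and so were not analysed in the siRNA libraries. Their absence does not mean a lack of response, since Fgf4 and Fgf15 were called lower at every Dox time here, as given below. Why these 2 genes were left out of that table is not known.

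The time course used KH2 ES cells, of a C57BL/6 x 129/Sv background, that carry a GATA6 cassette switched on by doxycycline (Dox), which every ES cell library of both sets shared. Libraries from cells without Dox (0 h) were set beside those from cells given 1 µg/mL Dox for 16, 24, 48, 72, 96 or 168 h (n = 3 each). XEN cells, a wild-type extra-embryonic endoderm line of CD1 origin cultured without Dox, gave 2 further libraries, so that XEN differs from the ES cells in strain and culture as well as in cell type. The siRNA set held 6 libraries with a non-targeting siRNA (siCTL) and 6 with siRNA against Oct4 (siOct4), all after 48 h of Dox in 1 clone. ES cells were grown on fibroblast feeders in serum and LIF, and feeders were removed by adsorption before lysis.

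FGF ligands are secreted proteins that bind receptor tyrosine kinases together with heparan sulphate or, for the endocrine ligands such as FGF15, together with a Klotho co-receptor. Ligand binding activates the RAS-ERK cascade, whose transcripts for ETS factors and for Sprouty and DUSP inhibitors are widely read as its output. In the early mouse embryo FGF4 is made by the epiblast and acts through FGFR1 and FGFR2 on the cells that become PrE.

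Values are TPM, a length-corrected share of the transcripts of a library, so levels can be set side by side between genes. Differences were tested with limma on log2(TPM + 1) over all genes whose group mean reached 1 TPM at least once, with Benjamini-Hochberg adjusted p-values, and a gene was called when its adjusted p was under 0.05 and its log2 fold change beyond 1 (induction) or 0.5 (siRNA). All 10 members passed the filter in the induction table, Fgf8 only through its 24 h mean. All Dox times were compared with the same 3 libraries at 0 h, so these comparisons share their controls. In bulk RNA, fewer expressing cells and less RNA per cell cannot be told apart.

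The induced and targeted genes moved as labelled: Gata6 had a mean of 0.264 ± 0.0978 TPM without Dox and 134 ± 4.61 TPM after 16 h (SD, n = 3 each), and Pou5f1, which encodes Oct4, went from 957 ± 184 TPM in siCTL to 331 ± 44.4 TPM in siOct4 (SD, n = 6). All 15 PrE markers were called higher at 168 h and 10 of 12 pluripotency markers were called lower. Replicate 3 of every time carried 13.4 to 34.9 TPM of Thy1, a gene of fibroblasts and other cells that was singled out after its values were seen, against 1.20 to 4.75 TPM in replicates 1 and 2 and in XEN, and results are also given without replicate 3 where that matters. The summed level of 12 feeder fibroblast markers, all of which had a value above 0 in every group, was 62.3 to 154 TPM at 0 h, 162 to 331 TPM at 168 h and 228 to 244 TPM in XEN. At 168 h 7 of the 12 were called higher than at 0 h and 0 lower, beside 22.6% and 16.5% of all genes. Fbln2, named after its values were seen, gave 128 TPM of the mean sum of 236 TPM in XEN, against 22.5 TPM at 168 h. Between XEN and 168 h, 1 marker was higher in XEN and 5 lower at an unadjusted p under 0.05 by limma. In the siRNA set, libraries siCTL 1 and 2, siCTL 5 and 6, and siOct4 5 and 6 lay closer together (root mean square distance 0.27 to 0.29 on the log2 scale) than the other pairs within a group (0.44 to 1.06), and library siCTL 3 stood apart.

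Of the ligands, 3 are neighbours. Fgf3 (ENSMUSG00000031074.14, mm10 chromosome 7, 144838083 to 144844436), Fgf4 (ENSMUSG00000050917.5, 144847367 to 144865243) and Fgf15 (ENSMUSG00000031073.6, 144896531 to 144900953) lie in that order on the plus strand, with no other protein-coding gene between them in GENCODE M21. These spans cover all annotated transcripts, and the RefSeq start of Fgf4 lies inside its span. Relative to that RefSeq start, the RefSeq start of Fgf3 lies at -22.8 kb and the GENCODE start of Fgf15 at 35.1 kb. The 250 bases before the RefSeq start (GRCm38.p6) of Fgf3 and Fgf4 are shown because these neighbours moved in opposite directions, and those of Fgf10 and Fgfr2 because these genes rose with Fgf3 at 16 h. Capitals mark the letters GATAA or its reverse complement TTATC, the core that GATA factors prefer:
Fgf3, chr7:144838362-144838611, plus strand: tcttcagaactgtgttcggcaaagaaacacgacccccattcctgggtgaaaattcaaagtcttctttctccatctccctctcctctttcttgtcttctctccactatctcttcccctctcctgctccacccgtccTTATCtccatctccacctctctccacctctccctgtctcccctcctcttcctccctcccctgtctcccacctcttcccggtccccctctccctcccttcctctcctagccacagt
Fgf4, chr7:144861136-144861385, plus strand: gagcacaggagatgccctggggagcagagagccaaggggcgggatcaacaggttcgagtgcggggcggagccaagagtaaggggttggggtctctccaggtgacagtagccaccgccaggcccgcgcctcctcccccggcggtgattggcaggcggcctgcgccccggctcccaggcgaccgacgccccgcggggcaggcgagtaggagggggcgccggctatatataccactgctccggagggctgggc
Fgf10, chr13:118714449-118714698, plus strand: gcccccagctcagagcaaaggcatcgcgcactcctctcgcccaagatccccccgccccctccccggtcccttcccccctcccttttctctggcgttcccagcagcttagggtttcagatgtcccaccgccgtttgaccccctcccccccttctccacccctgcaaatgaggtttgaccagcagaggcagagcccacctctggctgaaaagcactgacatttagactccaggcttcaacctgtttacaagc
Fgfr2, chr7:130266809-130267058, minus strand: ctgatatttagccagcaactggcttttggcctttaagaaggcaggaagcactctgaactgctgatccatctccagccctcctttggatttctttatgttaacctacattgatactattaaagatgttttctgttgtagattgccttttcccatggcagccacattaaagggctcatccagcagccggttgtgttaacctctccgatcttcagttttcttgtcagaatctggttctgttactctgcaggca

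RefSeq promoters were found for 7 of the 10 members. Of these 7 genes, Fgf3 held the GATA core, once, starting 115 bases before its start site, and Fgf4, Fgf10, Fgfr2, Fgfr3, Fgfr4 and Fgfrl1 held none in this window. On either strand the core occurs in 23.02% of 27025 promoters of the same length. The octamer ATGCAAAT, read by Oct4, occurs in 1.61% of promoters and in 0 of the 7. Fgf4 and Fgfrl1 have GC-rich windows (71.2% and 73.6% G or C, against a median of 52.0% over all promoters), whereas that of Fgfr2 has 44.0%. A match or its absence describes these letters only.

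Ligand expression was exchanged within days of GATA6 induction. Fgf4 and Fgf15, both present in undifferentiated ES cells, fell from the first time point onward, while Fgf3 and Fgf10 rose from about 1 TPM to peak means close to the 0 h mean of Fgf4, and Fgf8 stayed low throughout.

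Fgf4, the main FGF of ES cells and epiblast, was measured at 91.1, 90.6 and 73.6 TPM at 0 h. At 16 h its libraries held 32.2, 33.4 and 29.4 TPM, and at 24 h 16.5, 16.6 and 23.1 TPM. It stood at 6.76, 6.83 and 9.63 TPM at 48 h and at 0.366, 0.711 and 0.669 TPM at 168 h. Each group lay below the one before it, with no overlap of libraries at any step, and both XEN libraries listed Fgf4 at 0. Relative to 0 h the log2 fold change was -1.39 ± 0.22 (SE) at 16 h (adjusted p = 0.000224) and -5.77 ± 0.22 at 168 h (adjusted p = 2.53e-14), where the mean was 146 times lower.

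Fgf15, the mouse counterpart of human FGF19 and an endocrine FGF, followed Fgf4 downwards from a lower level. Its libraries held 13.4, 14.6 and 9.17 TPM at 0 h, 5.75, 5.95 and 3.66 TPM at 16 h, and 1.04, 0.517 and 0.549 TPM at 48 h. From 72 h on, no library exceeded 0.233 TPM, and 72 h, 96 h, 168 h and XEN overlapped with at least 1 neighbour in the order of levels. The log2 fold change was -1.13 ± 0.17 (SE) at 16 h (adjusted p = 0.000105) and -3.61 ± 0.17 at 168 h (adjusted p = 3.81e-13). Without replicate 3 of 16 h the 16 h value was -0.944 and no longer passed the fold limit.

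Fgf3, a ligand of the FGF7 subfamily best known from inner ear development, moved the other way. It was at 1.56, 1.80 and 1.06 TPM at 0 h and at 24.1, 20.9 and 20.1 TPM at 16 h, a 14.7-fold higher mean. It reached 81.6, 88.4 and 82.7 TPM at 96 h, above every other group, and was at 60.1, 52.0 and 70.8 TPM at 168 h. The XEN libraries, at 54.1 and 69.2 TPM, fell within the range of 168 h. By limma, the log2 fold change was 3.21 ± 0.19 (SE) at 16 h (adjusted p = 5.61e-10), 5.12 ± 0.19 at 96 h (adjusted p = 3.05e-14) and 4.65 ± 0.19 at 168 h (adjusted p = 6.32e-14).

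Fgf10 (ENSMUSG00000021732.14, chromosome 13, 118669791 to 118792115), a ligand of epithelial FGFR2 isoforms and a driver of lung and limb budding, rose beside Fgf3. Its libraries held 0.599, 0.731 and 1.86 TPM at 0 h, 20.3, 19.6 and 20.7 TPM at 16 h, and 92.2, 99.4 and 70.2 TPM at 72 h, its highest group. At 168 h they held 46.8, 45.6 and 73.1 TPM. The log2 fold change was 3.41 ± 0.20 (SE) at 16 h (adjusted p = 3.39e-10), 5.45 ± 0.20 at 72 h (adjusted p = 2.96e-14) and 4.78 ± 0.20 at 168 h (adjusted p = 6.32e-14). XEN cells carried less, 9.94 and 10.3 TPM, which was below every library from 16 h on and above every library at 0 h. An antisense gene, Gm16263, overlaps Fgf10 in the annotation, and the authors' RSEM options counted stranded reads by strand. Feeder markers were higher at 168 h than at 0 h, as given above, and their part in the Fgf10 value at 168 h was not tested. At 48 h the feeder sum was 85.4 to 123 TPM and Fgf10 was at 41.9 to 56.2 TPM, and the part of feeders was not tested there either.

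Fgf8 (ENSMUSG00000025219.13, chromosome 19), a ligand of gastrulation and of the isthmic organiser, never exceeded 1.36 TPM. Its mean was 0.443 ± 0.148 TPM at 0 h (SD, n = 3), reached 1.02 ± 0.318 TPM by 24 h and was down to 0.0743 ± 0.0719 TPM by 72 h. The 24 h libraries, between 0.730 and 1.36 TPM, lay above all others. Because Fgf8 passed the filter through this group alone, its 24 h level is given as a description, with no test.

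**Figure D1:**
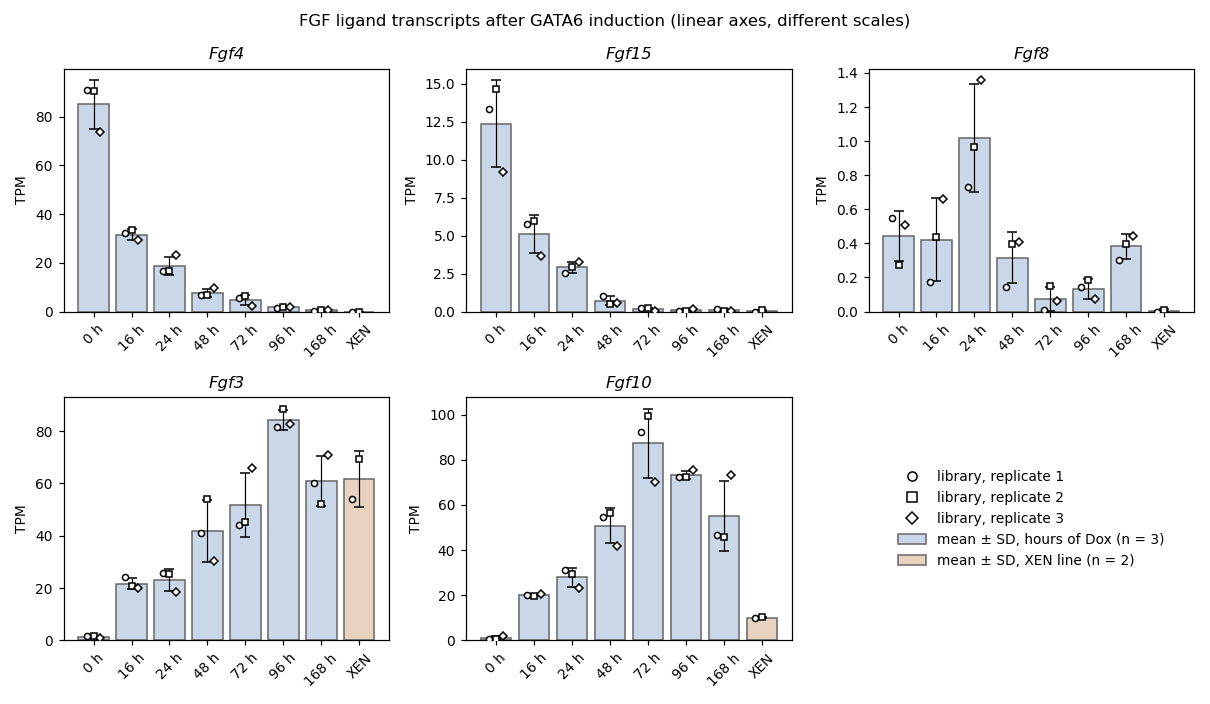
TPM of the 5 ligands by group, with bars for the mean, error bars for the SD and open symbols for the libraries. Fgf4 declines from 85.1 TPM at 0 h to 0.582 TPM at 168 h and is listed at 0 in XEN, while Fgf3 peaks at 84.2 TPM at 96 h and Fgf10 at 87.3 TPM at 72 h.

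The summed TPM of the 5 ligands hid this exchange. The sum was 100.5 ± 12.4 TPM at 0 h (SD, n = 3). It was 73.8 ± 3.88 TPM at 24 h, then 159 ± 3.82 TPM at 96 h, and the 168 h libraries summed to 117 ± 24.5 TPM. Fgf4 made up 84.7% ± 0.797 of the sum at 0 h, then 40.0% ± 1.37 by 16 h, 25.6% ± 6.62 by 24 h and 0.507% ± 0.194 by 168 h. Ligands outside this set are not in the sum, among them Fgf17 with 35.3 TPM at 0 h. At 168 h Fgf3 gave 52.4% ± 3.49 and Fgf10 46.7% ± 3.50, whereas in XEN Fgf3 gave 85.7% ± 1.76 and Fgf10 14.2% ± 1.87 (SD, n = 2). Of the 5 ligands, the falling Fgf4 and Fgf15 and the rising Fgf3 and Fgf10 were thus present side by side at 16 and 24 h in these bulk libraries, which do not show whether the same cells made both.

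Receptor transcripts changed in succession. Fgfr1 fell steadily, Fgfr2 rose early and fell back, and Fgfr3 and Fgfr4 rose and stayed high, so that a different receptor led at the start, in the middle and at the end of the course.

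Fgfr1 (ENSMUSG00000031565.18, chromosome 8), the leading receptor of ES cells, was measured at 30.0, 29.6 and 29.2 TPM at 0 h. It was at 24.1, 25.4 and 25.5 TPM at 16 h, at 10.4, 10.1 and 12.5 TPM at 48 h and at 4.18, 3.57 and 5.99 TPM at 168 h. From 0 h to 96 h no group overlapped with the next. By limma, the log2 fold change was -0.24 ± 0.15 (SE) at 16 h (adjusted p = 0.362), which was not called, -1.36 ± 0.15 at 48 h (adjusted p = 2.1e-07) and -2.48 ± 0.15 at 168 h (adjusted p = 1.05e-11). In XEN it was lower again, at 2.265 and 2.003 TPM. The difference from 168 h was -0.81 ± 0.16 on the log2 scale (adjusted p = 0.000425), short of the fold limit.

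Fgfr2 (ENSMUSG00000030849.18, chromosome 7), which as its IIIb isoform binds FGF10 and FGF3, rose and fell back. Gene-level TPM do not separate its isoforms, and GENCODE M21 draws its gene over 2960900 bases, across 69 other annotated genes. It was at 20.7, 17.96 and 8.95 TPM at 0 h, at 50.8, 47.4 and 65.3 TPM at 16 h and at 72.1, 80.4 and 81.1 TPM at 24 h. It stayed at 71.2, 68.3 and 79.5 TPM at 48 h, then lay between 35.6 and 48.5 TPM at 96 h. At 168 h, with 12.7, 13.03 and 10.1 TPM, its libraries overlapped with those at 0 h. The log2 fold change was 1.78 ± 0.21 (SE) at 16 h (adjusted p = 6.29e-06), 2.30 ± 0.21 at 24 h (adjusted p = 1.07e-07), 1.35 ± 0.21 at 96 h (adjusted p = 1.25e-05) and -0.32 ± 0.21 at 168 h (adjusted p = 0.182). Replicate 3 at 0 h was the lowest of its group, and without replicate 3 of every time the 96 h value was 0.86 and lost its call. XEN libraries held 8.53 and 7.42 TPM, below 0 h by 0.84 ± 0.23 on the log2 scale (adjusted p = 0.00363), which was not called. This value was -1.179 and called without replicate 3 of 0 h.

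Fgfr3 (ENSMUSG00000054252.18, chromosome 5), a receptor that signals in cartilage and many epithelia, was close to absent at 0 h, with 0.843, 0.853 and 0.832 TPM. It was at 5.42, 6.20 and 6.16 TPM at 16 h, at 16.7, 21.2 and 12.4 TPM at 48 h and at 38.7, 41.5 and 22.8 TPM at 168 h. XEN libraries held 31.0 and 29.7 TPM, inside the 168 h range. By limma, the log2 fold change was 1.91 ± 0.22 (SE) at 16 h (adjusted p = 3.77e-06) and 4.22 ± 0.22 at 168 h (adjusted p = 1.34e-12). Reads can be shared with the near copy Fgfr3-ps, which was listed at 0.152 to 1.71 TPM, so the 0 h level of Fgfr3 is uncertain while its later levels are far above that of the copy.

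Fgfr4 (ENSMUSG00000005320.9, chromosome 13), the receptor that pairs with beta-Klotho for FGF15 in the liver, started later. It was at 1.13, 0.690 and 0.507 TPM at 0 h and between 0.527 and 0.761 TPM at 16 h, and these groups overlapped. It was at 5.30, 6.94 and 3.79 TPM at 48 h, between 11.1 and 11.2 TPM at 96 h and at 21.0, 20.5 and 15.7 TPM at 168 h. The log2 fold change was -0.10 ± 0.17 (SE) at 16 h (adjusted p = 0.785), 1.82 ± 0.17 at 48 h (adjusted p = 2.21e-08) and 3.50 ± 0.17 at 168 h (adjusted p = 3.98e-13). XEN held 14.9 and 19.1 TPM, overlapping 168 h.

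Fgfrl1 (ENSMUSG00000008090.14, chromosome 5), a receptor that lacks the kinase domain, changed least among the receptors at 168 h apart from Fgfr2. Its libraries ranged from 4.32 to 7.92 TPM at 0 h and held 17.5, 13.5 and 10.6 TPM at 168 h, and every group overlapped with the next in the order of levels. The log2 fold change at 168 h, 1.07 ± 0.26 (SE, adjusted p = 0.00111), was close to the fold limit. It was 0.90 without replicate 1 of 168 h and 0.87 without replicate 3 of 0 h, and neither value was called. In XEN it was at 3.82 and 5.38 TPM.

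**Figure D2:**
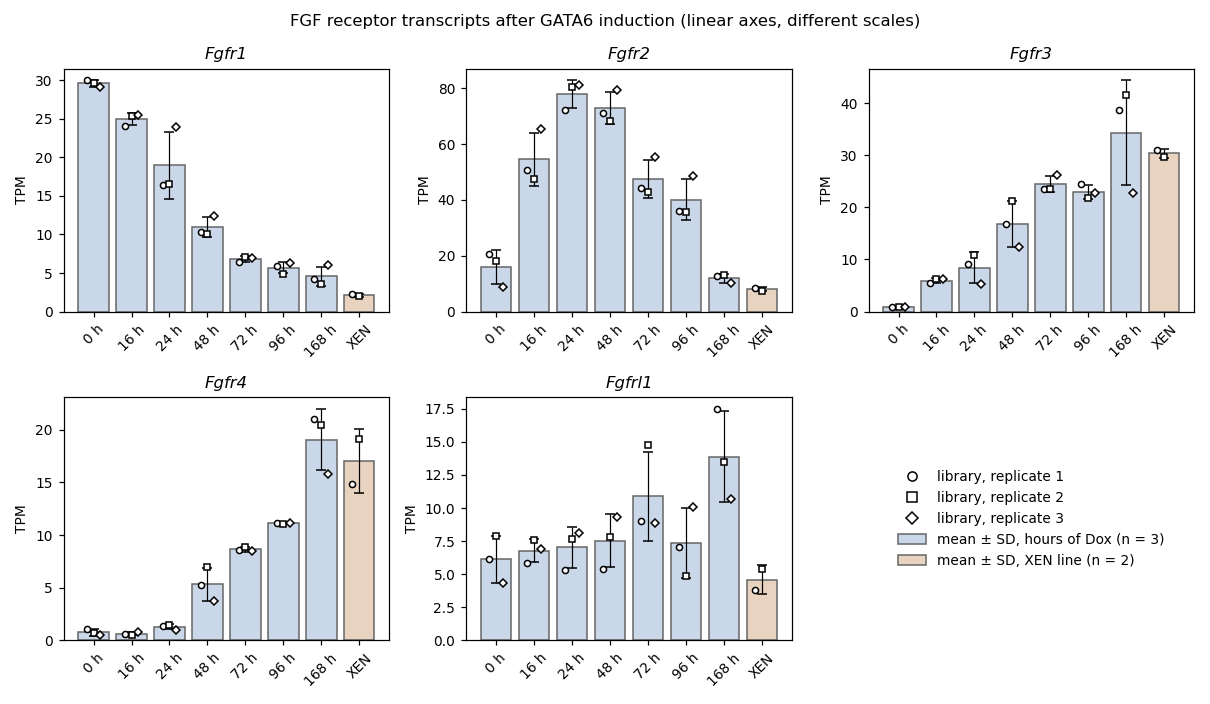
TPM of the 5 receptors by group, with bars for the mean, error bars for the SD and open symbols for the libraries. Fgfr1 declines from 29.6 to 4.58 TPM, Fgfr2 peaks at 77.9 TPM at 24 h and is back at 11.9 TPM at 168 h, and Fgfr3 and Fgfr4 reach 34.3 and 19.1 TPM at 168 h.

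The share of each kinase receptor in the summed TPM of Fgfr1 to Fgfr4 describes this succession. At 0 h Fgfr1 gave 63.7% ± 8.99 and Fgfr2 32.8% ± 8.91 of 47.1 ± 6.84 TPM (SD, n = 3). At 24 h Fgfr2 gave 73.1% ± 0.435 of 107 ± 6.58 TPM. At 72 h Fgfr2 still gave 54.2% ± 2.49, beside 28.0% ± 0.809 for Fgfr3. At 168 h Fgfr3 gave 48.4% ± 5.84, Fgfr4 27.4% ± 1.39, Fgfr2 17.2% ± 1.07 and Fgfr1 6.996% ± 3.48 of 69.9 ± 13.3 TPM. XEN cells had a similar order, with 52.8% ± 2.61 for Fgfr3, 29.5% ± 4.66 for Fgfr4, 13.9% ± 1.65 for Fgfr2 and 3.72% ± 0.396 for Fgfr1 (SD, n = 2). The highest Fgfr1 share at 168 h, 10.97%, belonged to replicate 3, the library with 33.0 TPM of Thy1 and 112 TPM of Pou5f1, against 39.1 TPM of Pou5f1 in both other libraries.

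**Figure D3:**
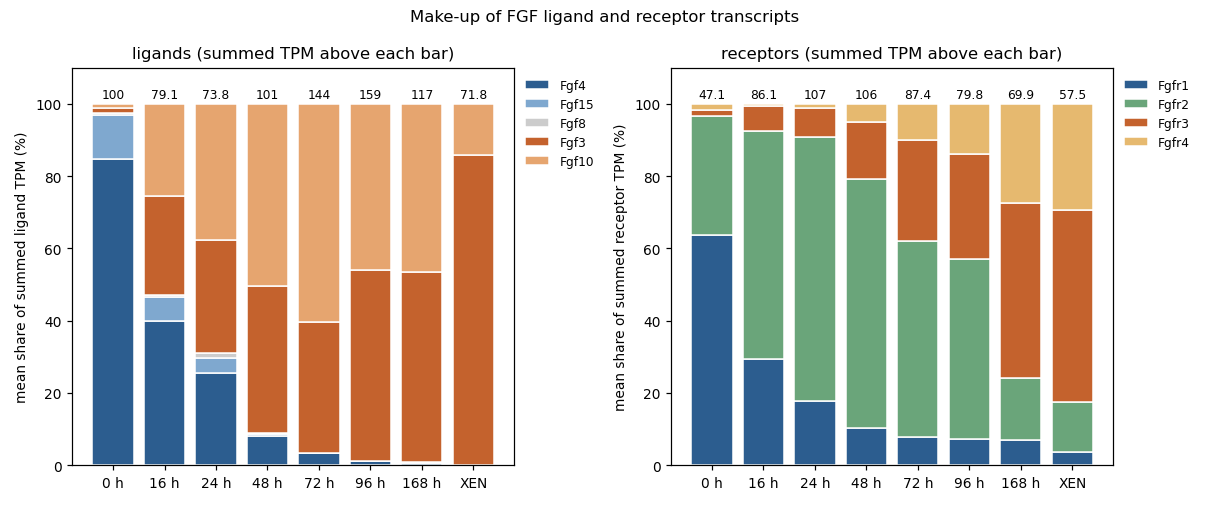
Mean share of each gene in the summed TPM of the 5 listed ligands (left) and in the summed Fgfr1 to Fgfr4 TPM (right) by group, in percent, with the mean sum above each bar. Of these 5 ligands Fgf4 takes 84.7% at 0 h and 0.507% at 168 h. Other ligands, such as Fgf17, are not in the sum. The leading receptor passes from Fgfr1 (63.7% at 0 h) to Fgfr2 (73.1% at 24 h) and Fgfr3 (48.4% at 168 h).

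Counted over the 10 members, 4 were called higher and 2 lower at 16 h, when 1.97% of all 15057 genes tested were higher and 0.804% lower. Those higher were Fgf3, Fgf10, Fgfr2 and Fgfr3, and those lower were Fgf4 and Fgf15. The counts were again 4 and 2 at 24 h, against 3.24% and 2.44% of all genes. At 48, 72 and 96 h 5 members were higher and 3 lower, Fgfr4 joining the first and Fgfr1 the second. The background grew from 9.14% higher and 7.26% lower at 48 h to 14.7% and 11.5% at 72 h and to 15.4% and 14.1% at 96 h. At 168 h 5 were higher (Fgf3, Fgf10, Fgfr3, Fgfr4 and Fgfrl1) and 3 lower (Fgf4, Fgf15 and Fgfr1), beside 22.6% and 16.5% of all genes. The members were picked with earlier results of these libraries known, so their count above the background is a description.

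XEN cells showed how far the ES cells had come by 168 h. Against 0 h, 4 members were called higher in XEN (Fgf3, Fgf10, Fgfr3 and Fgfr4) and 3 lower (Fgf4, Fgf15 and Fgfr1), beside 18.9% and 18.7% of all genes. Against 168 h, 0 members were called higher and 2 lower by limma, beside 4.73% and 9.17% of all genes. Fgf10 was lower in XEN than at 168 h by 2.30 ± 0.22 on the log2 scale (SE, adjusted p = 9.66e-08), and Fgfrl1 by 1.40 ± 0.29 (adjusted p = 0.000592), with no overlap of libraries for either gene. In the higher direction 0 members had an unadjusted p under 0.05. After median-of-ratios rescaling, 53.5% of the calls over all genes were lower in XEN than at 168 h, against 66.0% without it. Strain, culture and induction differ between these groups and cannot be told apart.

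The chromosome 7 neighbourhood was examined because Fgf3 rose 41.4-fold and Fgf4, the next gene, fell 146-fold in mean TPM by 168 h. Ccnd1, the cyclin D1 gene, whose GENCODE start lies 78.5 kb from the RefSeq start of Fgf4, fell with Fgf4 and Fgf15, from 89.2 to 8.36 TPM (log2 fold change -3.28 ± 0.33, SE, adjusted p = 3.59e-08). LTO1, named for its place between Fgf15 and Ccnd1 (RefSeq start at 53.7 kb), did not fall. Its means were 17.6 TPM at 0 h and 27.8 TPM at 168 h, and it is not among the listed neighbours counted below. On the other side Ano1, named for its place as the gene nearest to Fgf3, had means of 1.06 and 1.21 TPM (adjusted p = 0.765). Cttn, which encodes the actin-binding protein cortactin and starts at -390.4 kb relative to the RefSeq start of Fgf4, was called higher (2.13 ± 0.08, SE, adjusted p = 1.15e-14). Of the 7 listed neighbours tested, 2 were called higher (Cttn and Fadd) and 1 lower at 168 h, near the 22.6% and 16.5% of all genes, and their median log2 fold change was 0.64, against 0.09 over all genes.

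**Figure D4:**
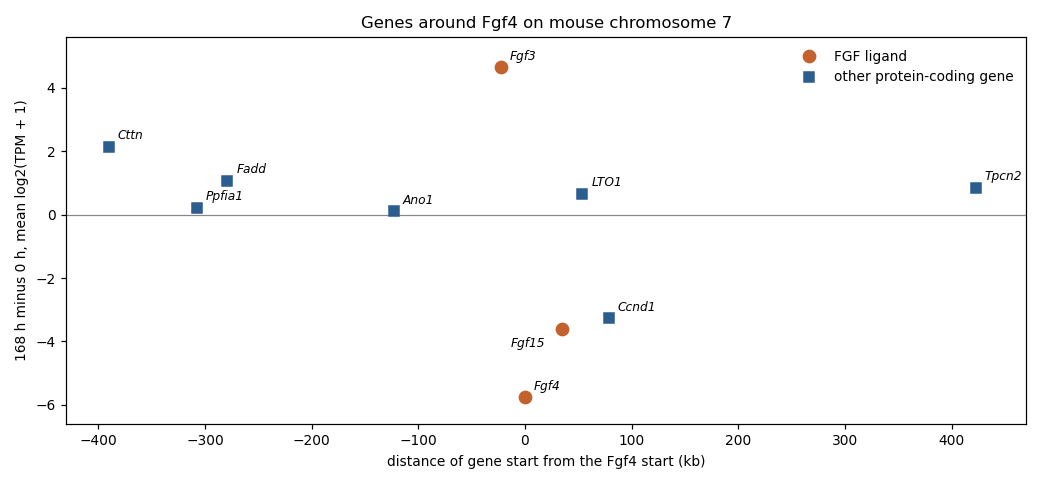
Difference between 168 h and 0 h in mean log2(TPM + 1) for protein-coding genes around Fgf4 on chromosome 7, plotted against the distance in kb of each gene start (RefSeq where given, otherwise GENCODE) from the RefSeq start of Fgf4. Fgf3 (4.65) stands above and Fgf4 (-5.77), Fgf15 (-3.61) and Ccnd1 (-3.28) stand below the other genes, which lie between 0.10 and 2.13.

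Of the 13 other secreted FGF ligands, 6 reached a mean of 1 TPM in some group. At 168 h 0 of these 6 were called higher and 2 lower by limma, both already lower at 16 h (0 higher and 3 lower at an unadjusted p under 0.05), beside 22.6% of all genes higher and 16.5% lower. Fgf17, a close relative of Fgf8, fell from 35.3 TPM at 0 h to 0.284 TPM at 168 h (log2 fold change -4.83 ± 0.17, SE, adjusted p = 7.63e-15), and Fgf18 from 5.08 to 0.890 TPM (-1.68 ± 0.27, adjusted p = 1.34e-05). At 0 h Fgf17 was the second most abundant FGF ligand after Fgf4. In XEN 3 of the 6 were called lower than at 0 h, beside 18.7% of all genes. Fgf1, among them, passed the filter only through its 0 h mean of 1.38 TPM. Its lower values there and in the unadjusted count at 168 h are therefore no result. The 1 called higher, Fgf20, passed the filter only through XEN, so that its call is no result. The 3 intracellular FGF homologous factors tested gave 0 calls by limma in either direction at 168 h, and 0 had an unadjusted p under 0.05.

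Partners of the receptors changed too. Of 7 genes tested for co-receptors, FGF binding proteins and receptor partners, 4 were called higher and 2 lower at 168 h, beside 22.6% and 16.5% of all genes, with a median log2 fold change of 2.57. Klb, which encodes the beta-Klotho co-receptor of endocrine FGFs, rose from 0.0203 TPM at 0 h to 58.1 TPM by 48 h, with 91.3 TPM for 72 h and 47.6 TPM for 168 h (log2 fold change at 168 h 5.57 ± 0.18, SE, adjusted p = 1.29e-15), as Fgf15 itself fell. Flrt3, a transmembrane protein that can associate with FGF receptors, rose from 1.48 to 173 TPM (6.13 ± 0.14, adjusted p = 2.45e-17), and its relative Flrt2 from 2.05 to 46.6 TPM (3.97 ± 0.23, adjusted p = 1.04e-11). Fgfbp1, a secreted FGF carrier, fell from 26.0 to 0.725 TPM (-3.98 ± 0.18, adjusted p = 1.93e-13).

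Inside the cell, few transcripts of the cascade were called. Of 23 adaptors and RAS-ERK components 0 were called in either direction at 16 h by limma (5 higher and 2 lower at an unadjusted p under 0.05), and 4 were higher and 1 lower at 168 h. The shares of all genes called were 1.97% (higher) and 0.804% (lower) for 16 h and 22.6% and 16.5% for 168 h, so the count of higher genes at 168 h was near the background. Frs2, the docking protein of FGF receptors, rose from 10.6 to 73.5 TPM (log2 fold change 2.68 ± 0.19, SE, adjusted p = 1.86e-10), Sos2, a RAS exchange factor, from 3.40 to 13.7 TPM (1.75 ± 0.13, adjusted p = 2e-10) and Ptpn11, the SHP2 phosphatase, from 25.8 to 65.5 TPM (1.31 ± 0.06, adjusted p = 6.09e-13). Ksr1, a scaffold of the cascade, fell from 4.34 to 1.3 TPM (-1.20 ± 0.21, adjusted p = 3.09e-05).

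Among 17 ERK target and feedback genes tested, 4 were called higher and 8 lower at 168 h, beside 22.6% and 16.5% of all genes, so that the higher count was near the background. The ETS factor genes Etv4 and Etv5, often used as readouts of FGF signalling, fell from 110 to 2.06 TPM (log2 fold change -5.18 ± 0.16, SE, adjusted p = 7e-16) and from 99.2 to 3.71 TPM (-4.42 ± 0.12, adjusted p = 2.53e-16). Myc fell from 29.9 to 1.84 TPM (-3.44 ± 0.14, adjusted p = 6.58e-14), and Spry4, a feedback inhibitor, from 33.1 to 3.05 TPM (-3.08 ± 0.12, adjusted p = 2.53e-14). At 16 h Myc was higher, with a mean of 60.4 TPM. Its log2 fold change there, 0.998 (limma adjusted p = 6.5e-05), missed only the fold limit. The 4 that rose were Dusp4, Ier3, Egr1 and Fos, which are named here because their values were seen. At 16 h Dusp4 alone was called, from 11.2 to 54.4 TPM (2.19 ± 0.14, adjusted p = 1.61e-09). At that time 4 of the 17 were higher and 4 lower at an unadjusted p under 0.05 by limma. These transcripts also answer to inputs other than FGF.

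The genes whose level followed each member most closely over the 23 induction libraries are given as a description, since all libraries share the time course. Among 11355 genes whose mean reached 5 TPM in some group, Gata4 was nearest to Fgf3 (Pearson r = 0.979 of log2(TPM + 1)), with Podxl (0.978) and Flrt3 (0.976) next. Bmp6 was nearest to Fgf10 (0.988), followed by Zbtb10 (0.984) and Mgst3 (0.970). Ildr1 and 1700019D03Rik (both 0.991) and Dlgap3 (0.989) were nearest to Fgf4, and Gm16211 (0.993), Nkx6-3 (0.990) and Olig2 (0.990) to Fgf15. For the receptors the nearest were Cdc5l (0.991), Zbtb8a (0.988) and Tet1 (0.987) for Fgfr1, Cmip (0.961), Crb2 (0.951) and Lrrn4 (0.950) for Fgfr2, Gdpd5 (0.984), Lamb1 (0.983) and Gcnt1 (0.982) for Fgfr3, and Lamp1 (0.994), P3h2 (0.993) and Sh3pxd2b (0.991) for Fgfr4. Fgf8 (Fam220a 0.866, Tmem64 0.790, Igfbp3 0.786) and Fgfrl1 (Csnk1e 0.867, Zfp51 0.834, Cyhr1 0.818) had looser neighbours. Among the members, Fgf4 went with Fgfr1 (r = 0.970) and Fgf3 with Fgfr3 (0.947), whereas Fgfr2 had no r with another member above 0.42 in size.

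To ask what Oct4 adds at 48 h of Dox, siOct4 and siCTL libraries were compared for the 7 members in the siRNA table. In the fit without pairing 0 of 7 were called by limma, beside 0.942% of 6264 genes called higher and 1.72% called lower, and 2 had an unadjusted p under 0.05, Fgf3 and Fgf10. Libraries with the same replicate number deviated together on average, though not in every case more than others, so the replicate block was also fitted. With the replicate block 3 members were called lower, Fgf3, Fgf10 and Fgfr2, beside 6.15% of all genes called lower and 2.43% called higher. Their blocked log2 fold changes, -0.636, -0.583 and -0.606, were near the limit of 0.5. The median over all genes was -0.124 in the fit without pairing, and the block was not fitted on rescaled values. Of 15 PrE markers, 3 were called lower in the fit without pairing (Foxq1, Cubn and Amn, named here because they were the calls) and 0 higher, with 9 lower and 0 higher at an unadjusted p under 0.05. Their summed level was 3921 to 7393 TPM in siOct4 and 5304 to 11780 TPM in siCTL, and their part in the FGF values was not tested.

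Fgf3 held 20.9, 19.3, 31.9, 45.9, 19.6 and 17.2 TPM in siCTL libraries 1 to 6 and 11.7, 10.6, 21.6, 27.2, 12.3 and 13.8 TPM in siOct4 libraries 1 to 6. It was lower with siOct4 in 6 of 6 pairs, although the groups overlapped. Its differences were largest in pairs 1, 2 and 4 (-0.789, -0.813 and -0.736 on the log2 scale). In these pairs 6 feeder fibroblast markers summed to 205, 192 and 224 TPM in siCTL and to 71.4, 65.7 and 30.0 TPM in siOct4. In pairs 3, 5 and 6 the feeder sum was higher with siOct4, and Fgf3 differed by -0.541, -0.633 and -0.302. The part of feeders was not tested. By limma, the log2 fold change was -0.64 ± 0.28 (SE, adjusted p = 0.324), and with the replicate block the adjusted p was 0.0163. Leaving out pair 3 the blocked adjusted p was 0.045.

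Fgf10 held 62.8, 58.8, 33.5, 90.9, 55.8 and 54.1 TPM in siCTL and 44.5, 28.2, 26.3, 39.1, 51.8 and 42.8 TPM in siOct4. It too was lower in 6 of 6 pairs, by between 0.11 and 1.20 on the log2 scale. Its differences were also largest in pairs 1, 2 and 4 (-0.488, -1.032 and -1.198), where the feeder sum was lower with siOct4. In pairs 3, 5 and 6, where that sum was higher with siOct4, they were -0.341, -0.106 and -0.333. The part of feeders was not tested. The log2 fold change was -0.58 ± 0.23 (SE, adjusted p = 0.248), and with the replicate block the adjusted p was 0.0451. Without pair 3 the blocked adjusted p was 0.0792. With the exon length trend removed the blocked value was -0.458 (adjusted p = 0.0133), short of the fold limit.

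Fgfr2 held 92.9, 86.0, 26.2, 93.3, 143 and 113 TPM in siCTL and 67.6, 46.8, 21.1, 35.7, 109.9 and 92.9 TPM in siOct4. It was lower in 6 of 6 pairs, and library 3 was the lowest of each group. Its log2 differences were -0.453, -0.864 and -1.363 in pairs 1, 2 and 4, where the feeder sum was lower with siOct4. In pairs 3, 5 and 6, where that sum was higher with siOct4, they were -0.303, -0.375 and -0.278. The part of feeders was not tested. By limma, the log2 fold change was -0.61 ± 0.42 (SE, adjusted p = 0.597), and with the replicate block the adjusted p was 0.0333, or 0.0534 without pair 3. With the exon length trend removed the blocked value was -0.431 (adjusted p = 0.00866), short of the fold limit. Fgf3, Fgf10 and Fgfr2 had all risen by 16 h of Dox, as had Fgfr3, which was lower in 2 of 6 pairs only. Gata6 itself, the induced gene, had means of 121 ± 38.6 TPM in siCTL and 85.9 ± 26.4 TPM in siOct4 (SD, n = 6).

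Fgfr1 was higher in some pairs and lower in others. It held 8.05, 8.36, 2.81, 9.66, 9.79 and 9.04 TPM in siCTL and 10.8, 7.27, 4.68, 5.29, 26.0 and 22.4 TPM in siOct4, higher in 4 of 6 pairs (log2 fold change 0.43 ± 0.40, SE, adjusted p = 0.722, or 0.349 with the replicate block). With the exon length trend also removed, a setting added after seeing the data, it was 0.596 with an adjusted p of 0.0439 and was called higher. Its 2 high libraries, siOct4 5 and 6, were also those in which 6 feeder fibroblast markers summed to 234 and 211 TPM, against 30.0 to 71.4 TPM in the other siOct4 libraries, and 42.3 and 50.1 TPM in siCTL 5 and 6. In siCTL the feeder sum ranged from 28.3 to 224 TPM, and siCTL 1, 2 and 4, with 204.7, 191.5 and 223.7 TPM, had Fgfr1 at 8.05 to 9.66 TPM. The part of feeders in the siOct4 values was not tested.

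Fgfr3, Fgfr4 and Fgfrl1 had means of 22.97, 3.73 and 3.95 TPM in siCTL and 21.0, 3.79 and 3.91 TPM in siOct4, with log2 fold changes of -0.03 ± 0.28, -0.01 ± 0.29 and -0.02 ± 0.24 (SE, adjusted p = 0.969, 0.993 and 0.983), all of which turned positive after median-of-ratios rescaling. That rescaling moved the median of all genes from -0.12 to 0.01 and the share of lower calls from 64.7% to 51.5%. Fgfr3 ranged from 14.6 to 50.5 TPM in siCTL, the highest value being that of library 4. The siRNA libraries also differed in their trend with exon length, from -0.69 (siCTL 3) to 0.62 (siCTL 4) log2 units per unit of log10 length, and Fgfr1 and Fgfr2 are among the longer transcripts by summed exons (9875 and 10328 bases, against 2326 for Fgf3).

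**Figure D5:**
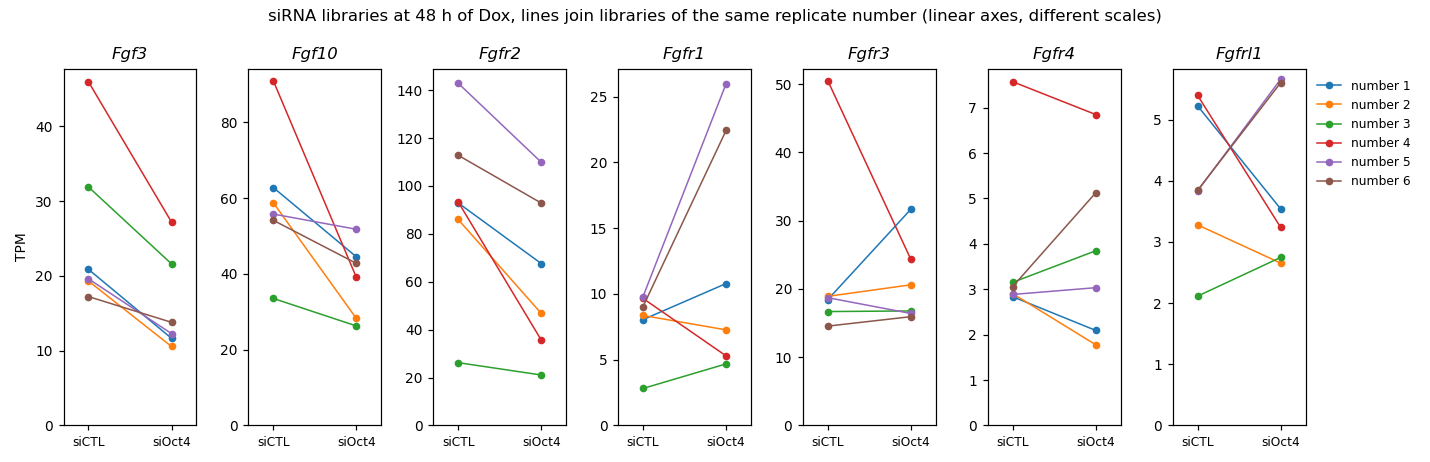
TPM of the 7 members in siCTL and siOct4 libraries, with a line joining libraries of the same replicate number. Fgf3, Fgf10 and Fgfr2 are lower with siOct4 in 6 of 6 pairs, while Fgfr1 rises in the pairs numbered 5 and 6 from 9.79 and 9.04 to 26.0 and 22.4 TPM.

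Pathway genes in the siRNA table gave few calls, in a fit without pairing that called 0.942% of all genes higher and 1.72% lower. Of 7 co-receptor and partner genes 1 was called, Fgfbp1, which was higher with siOct4 (23.7 against 7.36 TPM, log2 fold change 1.70 ± 0.39, SE, adjusted p = 0.0301) and is named here because it was the single call. Of 14 ERK target and feedback genes 0 were called by limma and 2 were lower at an unadjusted p under 0.05, with Etv4 at 10.6 TPM in siOct4 and 19.9 TPM in siCTL (adjusted p = 0.28). Of 8 trophectoderm markers 3 were called higher with siOct4 (Krt18, Plac1 and Ascl2), and their summed level was 267 to 721 TPM in siOct4 against 95.5 to 120 TPM in siCTL. At an unadjusted p under 0.05 by limma, 7 were higher and 0 lower. In the induction libraries the mean sum of 9 such markers went from 52.1 TPM at 0 h to 250 TPM at 168 h and 230 TPM in XEN. Most of the sum at 168 h and in XEN was Krt18, which went from 7.49 TPM at 0 h to 235 and 228 TPM. Of the 8 tested, 2 were called higher at 168 h (Krt18 and Plac1), beside 22.6% of all genes. Another 2 were called lower (Ascl2, from 3.11 to 0.501 TPM, and Tfap2c, from 38.3 to 1.97 TPM), beside 16.5%. The part of these markers in the values of the FGF members was not tested. Of the 8 gastrulation markers, 2 reached 1 TPM in the induction table, and the summed level of the 8 stayed between 0.576 and 3.45 TPM in every library.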

How the data were processed

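RNA-seq values were deposited by the authors as TPM per gene, for 23 induction libraries and 12 siRNA libraries. Per the labels and the methods, stranded polyA libraries were read in pairs, aligned to mm10 with STAR and quantified by strand with RSEM, and outliers of a principal component analysis were omitted. Tool versions and the annotation are not given in the sources used here. Induction columns sum to 1000000 TPM. The siRNA columns sum to 274527 to 355895 TPM, because that table lists only genes classed as responsive. It also holds group means and text classes from the authors' own comparisons, which were not used. TPM keep no read depth, so the spread between libraries is the error given. The study describes the siRNA knock-downs as independent experiments. For the induction libraries it describes independent replicates, 3 for each condition and 2 for XEN. The labels do not say whether these were separate cultures, so p-values there measure the spread between these libraries.

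Of the induction rows, 60 symbols stood on more than 1 row, of which the most abundant row was used. TPM were tested as log2(TPM + 1), which understates changes of low genes, with limma 3.58.1 in R 4.3.3 (lmFit, eBayes with trend and robust options) over 15057 and 6264 genes whose mean reached 1 TPM in a group. The induction fit used all 8 groups. Tests were checked on simulated data. Descriptions used Python, numpy and pandas, promoters came from RefSeq (GRCm38.p6) and positions from GENCODE M21. The members and gene lists were chosen with earlier results of these data known. Of each list other than the members, at most 4 genes were named, those called at 168 h with the largest change and no overlap of libraries. Exceptions are Ano1 and LTO1, named for their position, genes named with a count of 5 or fewer calls, and genes marked in the text as named after their values were seen. Likeness of pattern was Pearson r over 23 libraries.

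Groups and replicate numbers came from the sample titles. In the siRNA set pairs with the same number deviated together on average (r of deviations from the group mean 0.236 to 0.707, mean 0.33). The highest r, 0.707, was that of pair 3. Pairs with other numbers had a mean of -0.06 but ranged from -0.556 to 0.459, so the ranges overlapped. Of the siCTL libraries, 4 of 6 had their closest siOct4 library under the same number. The pairing is thus uncertain, and the replicate block is given beside those results.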

Additional observations from a re-analysis of the deposited data

Results flagged for a closer look

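The 6 siCTL and 6 siOct4 libraries were screened, gene by gene, for a library far from the rest of its group (Dixon's ratio of gap to range), 14 sets of 6 values in all. Chance gives about 1 such set in 20, or 0.7 here, and 4 were found, all in siCTL. Library siCTL 3 was low for Fgfr1, at 1.93 on the log2(TPM + 1) scale (2.81 TPM) against 3.18 to 3.43 in the other siCTL libraries, and for Fgfr2, at 4.77 (26.2 TPM) against 6.44 to 7.17. Library siCTL 4 was high for Fgfr3, at 5.69 (50.5 TPM) against 3.96 to 4.32, and for Fgfr4, at 3.10 (7.57 TPM) against 1.94 to 2.05. These are the libraries with the lowest and the highest trend with exon length (-0.69 and 0.62 log2 units per unit of log10 length), and siCTL 4 also had the highest Gata6, 198.5 TPM against 92.6 to 112 TPM. The part of either in these values was not tested.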

How the results depend on the processing

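With limma, 67 combinations of a member and a comparison were called under at least 1 setting. Of their 1011 values under an alternative, 982 kept direction and call, 5 lost the call, 24 gained it and 0 reversed. The other 20 combinations were called under no setting, and 13 of them changed sign under some alternative. For siOct4 the count of called members moved from 0 to 3 with the replicate block, to 2 with the replicate block and the exon length trend removed (Fgf3 at -0.567 and Fgfr1 at 0.596, while Fgf10 at -0.458 and Fgfr2 at -0.431 missed only the fold limit), and to 1 with the replicate block and pair 3 left out (Fgf3). The last 2 settings were added after seeing the data. With consecutive siRNA libraries averaged, which leaves 3 values a group, 0 members and 0 of all genes were called. For XEN against 168 h the count moved from 2 to 5 with a pseudocount of 0.1 and to 5 with no fold change minimum, Fgf4, Fgf8 and Fgfr1 being added in both. Fgfrl1 at 168 h was 0.899 and lost its call after median-of-ratios rescaling, which moved the median of all genes from 0.088 to -0.046. Leaving out each replicate in turn gave 5 to 6 called members at 16 h, 7 to 8 at 168 h and for XEN against 0 h, and in the other comparisons the counts of the full set. In the induction set the replicate numbers do not pair the libraries (mean r 0.033 for the same number, -0.016 otherwise), and the replicate block left 6 members called at 16 and 24 h, 8 at 48 to 168 h, 7 for XEN against 0 h and 2 for XEN against 168 h. Without replicate 3 of every time, added after seeing the data, the 96 h count was 7 and that of XEN against 0 h 8. With Fgfrl1 in the sum, the Fgfr2 share was 68.59% at 24 h, 48.24% at 72 h and 14.36% at 168 h. Over all genes, 417 calls at 16 h and 855 at 24 h became 674 and 1440 with a pseudocount of 0.1 and 1949 and 4293 with no fold change minimum. That last setting also gave 8093 in place of 2469 at 48 h, 9873 in place of 3947 at 72 h, 10138 in place of 4449 at 96 h, 11286 in place of 5887 at 168 h and 10721 in place of 5654 for XEN against 0 h. For XEN against 168 h, 2092 calls became 3215 and 7525. For siOct4, 167 became 297 after rescaling, 61 at an adjusted p under 0.01, 537 with the replicate block, 388 with it and pair 3 left out, 363 with the exon length trend removed and 633 with both, and ranged from 87 (without siCTL 6) to 322 (without siCTL 3). Where no cause is named, the cause was not tested. Read depth is unknown, so its limit on the lowest values (Fgf8, and Fgf15 from 72 h) cannot be given.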

Other observations

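XEN cells differed from the 168 h cells in FGF pathway genes outside the set of ligands and receptors, named here after their values were seen. Gab1, an adaptor that links receptor tyrosine kinases to SHP2, was at 79.6 TPM at 168 h and at 9.86 TPM in XEN (log2 fold change -2.89 ± 0.06, SE, limma adjusted p = 8.43e-18). Mapk3, which encodes ERK1, was at 89.7 and 32.1 TPM (-1.45 ± 0.21, adjusted p = 1.24e-05). The immediate early genes Fos and Egr1 were at 304 and 302 TPM at 168 h and at 30.0 and 11.6 TPM in XEN, with no overlap of libraries. Etv4 was higher in XEN than at 168 h, 7.76 against 2.06 TPM (1.52 ± 0.17, adjusted p = 9.25e-07), although both lay far below 0 h. Fgf20 had a mean of 1.57 TPM in XEN and of at most 0.122 TPM in the ES cell groups. It passed the filter only through XEN, so its level is given as a description, with no test. Strain and culture differ between XEN and the ES cells and cannot be told apart from cell type.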
